A study of Mus musculus with 28 samples.

Results

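Mouse embryonic stem (ES) cells without Dicer that carried the DICER1 hotspot mutant D1709N were compared with the same Dicer-/- cells carrying wild-type DICER1 in the same lentiviral vector, pLD-puro-PGKnvA. The comparison was chosen by array title and took 2 D1709N arrays (R1 and R2) and 2 WT-DICER1 arrays (R5 and R6), 4 of the 28 Affymetrix Mouse Gene ST arrays of the series. All genes were examined. Further groups served to place the D1709N levels: Dicer-/- cells with DICER1 E1813Q in the same vector (n = 2), Dicer-/- cells with DICER1 D1709A (n = 4) or with wild-type DICER1 (n = 4) in the ENvA vector, and Dicer-/- cells with an eGFP transgene in ENvA (n = 3). Every one of these groups shares the Dicer-/- genotype. Cells without any vector, Dicer-/- (n = 3) and Dicer+/+ (n = 2), are used for the levels of Dicer1 and Mir302b alone. All cells were kept in ES cell medium and collected during log phase growth. The labels give neither the number of clones or cultures behind the arrays nor the species of the DICER1 transgene, so any p-value rests on how far arrays of a group differ, and that spread may be technical.

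DICER1 releases mature microRNAs (miRNAs) from hairpin precursors with a pair of RNase III domains. The RNase IIIb domain makes the cut that frees the strand on the 5-prime arm (5p), and the RNase IIIa domain makes the one that frees the 3-prime arm (3p). Hotspot substitutions recurrent in human tumours fall on metal-binding acidic residues of RNase IIIb. In D1709N and D1709A the same aspartate is replaced by asparagine or by alanine, and in E1813Q another acidic residue, a glutamate, is replaced by glutamine. Mouse ES cells depend heavily on the miR-290 and miR-302 families, whose abundant mature strand comes from the 3p arm, while let-7 acts through its 5p strand. A mature miRNA lowers its target mRNAs by pairing with them through its seed, bases 2 to 8.

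The deposited values are log2 expression levels per probe set. Array medians lay between 7.14 and 7.27, and 13956 genes with a mean at or above 6.42 were tested in limma. ES cell identity was checked with 10 defining markers, among them Pou5f1, Nanog and Sox2. All 10 lay above the filter level, and their mean log2 level was 12.28 on both D1709N arrays, against 12.25 and 12.27 on the WT-DICER1 arrays. Single markers did move, as 3 of the 10 rose and 3 fell (30% each way). Utf1 averaged 12.12 in D1709N cells, against 11.54 in WT-DICER1 cells, and Zfp42 averaged 10.63, against 10.97. Fibroblast or feeder markers averaged 7.28 on both D1709N arrays, against 7.38 to 7.42 on the WT-DICER1 arrays, and 4 of the 13 measured (Dcn, Lum, Postn and S100a4) had a mean over all 28 arrays below the filter level and were not tested. Postn, a matrix protein gene, averaged 6.35 in D1709N cells and 7.21 in WT-DICER1 cells. Of the 9 tested, 0 rose and 1 fell, Pdgfra (-0.45). Without the filter 2 markers fell, and 3 did with the 4 compared arrays alone, and the part of such cells in the results below was not tested. In bulk RNA, fewer cells of a type and less RNA per cell cannot be told apart. Arrays are tied to each other by exact linear relations, with 3 singular values of at most 0.00233 and the next at 24.1. The mean of the WT-DICER1 arrays in PGKnvA equals that of the ENvA ones within 7.5e-05. Whether the D1709N arrays enter any of these relations was not tested. The p-values and counts below are therefore approximate.

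D1709N cells differed from WT-DICER1 cells in a large share of their genes, mostly by less than 2-fold. At an adjusted p under 0.05, the call used throughout, 2995 genes rose (21.5% of those tested) and 2581 fell (18.5%), together 40.0%. A change of at least 2-fold was reached by 63 genes that rose (0.451%) and 60 that fell (0.430%). The median difference of all genes was 0.02 on the log2 scale and the median standard error (SE) of a difference was 0.091. Both D1709N arrays lay above both WT-DICER1 arrays for 5321 genes (38.1%) and below both for 4585 (32.9%), which is the background against which separation of the 4 arrays has to be read.

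**Figure D1:**
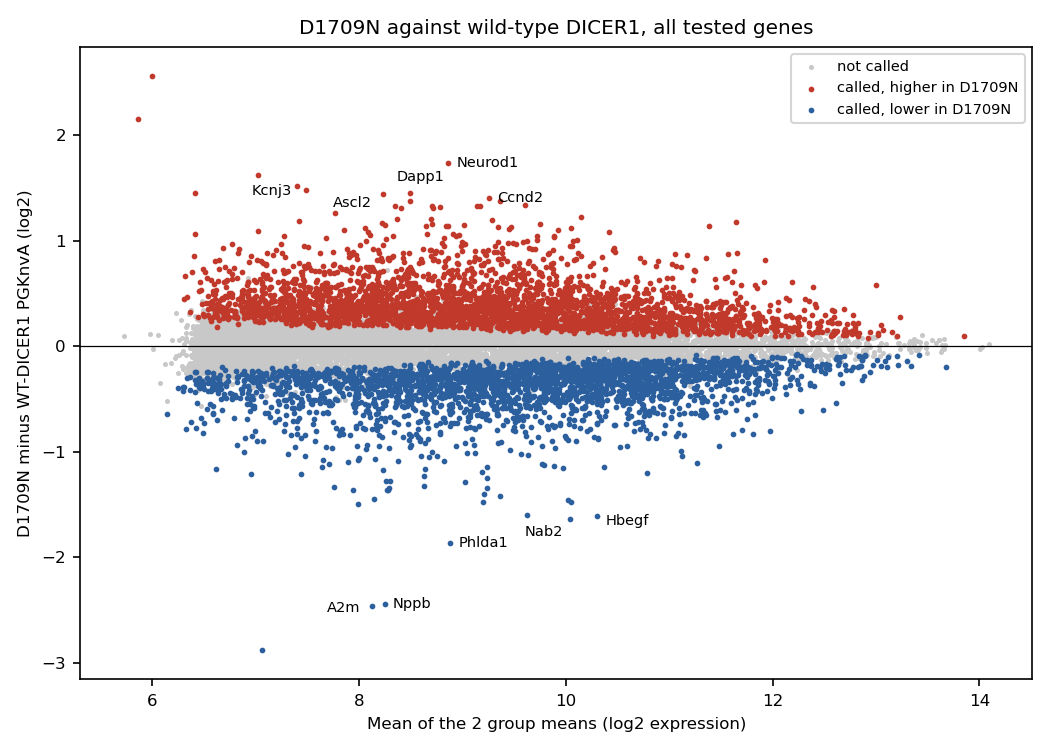
Each point is a tested gene, with the mean of the D1709N and WT-DICER1 PGKnvA group means on the horizontal axis and D1709N minus WT-DICER1 PGKnvA on the vertical axis, both in log2 units. Genes called higher (2995) are red and genes called lower (2581) are blue. Labels mark the 5 largest rises and 5 largest falls with both group means at or above the filter level, from Neurod1 at 1.73 to A2m at -2.46. Predicted and small RNA genes were left out of that ranking.

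Dicer1 itself had log2 levels of 8.97 and 8.84 on the D1709N arrays, against 9.30 and 9.32 on the WT-DICER1 arrays. It fell by 0.40 ± 0.075 (SE, adjusted p = 1.25e-04). The eGFP arrays averaged 9.39 ± 0.10 (SD, n = 3), the Dicer-/- cells without a vector 9.27 ± 0.04 (SD, n = 3) and the Dicer+/+ cells 10.68 ± 0.05 (SD, n = 2). Arrays with a WT-DICER1 transgene were thus close to cells without one, and this probe set gives no check of transgene expression. Whether it can detect the transgene was not tested.

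With predicted and small RNA genes left out, the largest rises joined neuronal, lineage and signalling genes with a stress gene. Neurod1, a neurogenic transcription factor, had levels of 9.80 and 9.66 in D1709N cells, against 8.05 and 7.94 in WT-DICER1 cells. It was 3.33-fold higher in D1709N (log2 difference 1.73 ± 0.16 SE, adjusted p = 6.96e-09). Insm1, another neuroendocrine transcription factor, had 9.76 and 9.84, against 8.49 and 8.46 in WT-DICER1 cells, a rise of 1.33. Both factors belong to neuroendocrine differentiation. Kcnj3, a potassium channel subunit, had 8.30 and 8.14 in D1709N cells, against 6.81 and 6.68 in WT-DICER1 cells. That rise of 1.48 ± 0.11 (SE) had an adjusted p of 1.70e-10. Ascl2, an imprinted transcription factor of the trophoblast, read 8.95 on both D1709N arrays, against 7.52 and 7.50 on the WT-DICER1 arrays. The D-type cyclin Ccnd2 had 10.04 and 9.88 in D1709N cells, against 8.56 and 8.54 in WT-DICER1 cells. Lefty1, a secreted inhibitor of Nodal, had 10.26 and 10.29, against 8.90 and 8.97 in WT-DICER1 cells. In each of these 6 genes the D1709N arrays lay more than 1 log2 unit above both WT-DICER1 arrays. Chac1, a glutathione-degrading enzyme induced by ATF4, had 9.96 and 9.71, against 8.44 and 8.57, and rose by 1.33 ± 0.085 (SE, adjusted p = 1.33e-11). The other 5 of the 12 largest rises were the signalling adaptor Dapp1 (1.45), Proser3 (1.38), the actin regulator Cyria (1.37), the homeobox gene Pknox2 (1.33) and the Wnt pathway inhibitor Mcc (1.33). Spink1, a secreted protease inhibitor, Ppp4r4 and H60b rose too, but their WT-DICER1 means lay below the filter level and they are given no size.

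The largest falls held secreted factors and genes downstream of growth factor signalling. A2m, the protease inhibitor alpha-2-macroglobulin, had levels of 6.91 and 6.89 in D1709N cells, against 9.36 and 9.35 in WT-DICER1 cells, and was 5.49-fold lower (-2.46 ± 0.20 SE, adjusted p = 1.19e-09). Nppb, the precursor of a natriuretic peptide, had 6.95 and 7.10, against 9.42 and 9.51 in WT-DICER1 cells, a difference of -2.44 ± 0.10 (SE, adjusted p = 9.37e-15). Both genes were close to the filter level in D1709N cells and well above it in WT-DICER1 cells. Hbegf, a ligand of the EGF receptor, had 9.58 and 9.42 in D1709N cells, against 11.15 and 11.07 in WT-DICER1 cells. Phlda1 had 8.03 and 7.86, against 9.80 and 9.82 in WT-DICER1 cells. Nab2, a corepressor of EGR factors, had 9.02 and 9.42, against 10.85 and 10.87, and its 2 D1709N arrays differed more than those of Hbegf. The matrix glycoprotein gene Thbs1 had 9.44 and 9.19 in D1709N cells, against 10.81 and 10.78 in WT-DICER1 cells, a fall of 1.48 ± 0.23 (SE, adjusted p = 1.79e-05). The remaining falls were Kdelr3, a retrieval receptor of the secretory pathway (-1.59), the lipid synthesis enzyme Gpat3 (-1.49), the meiotic cohesin subunit Stag3 (-1.48), the glycolytic enzyme Aldoc (-1.45), the coatomer subunit Copz2 (-1.44) and the urokinase receptor Plaur (-1.42). Srgn, a proteoglycan core protein, Usp26 and Trpv3 also fell, to means below the filter level, so no size is given.

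**Figure D2:**
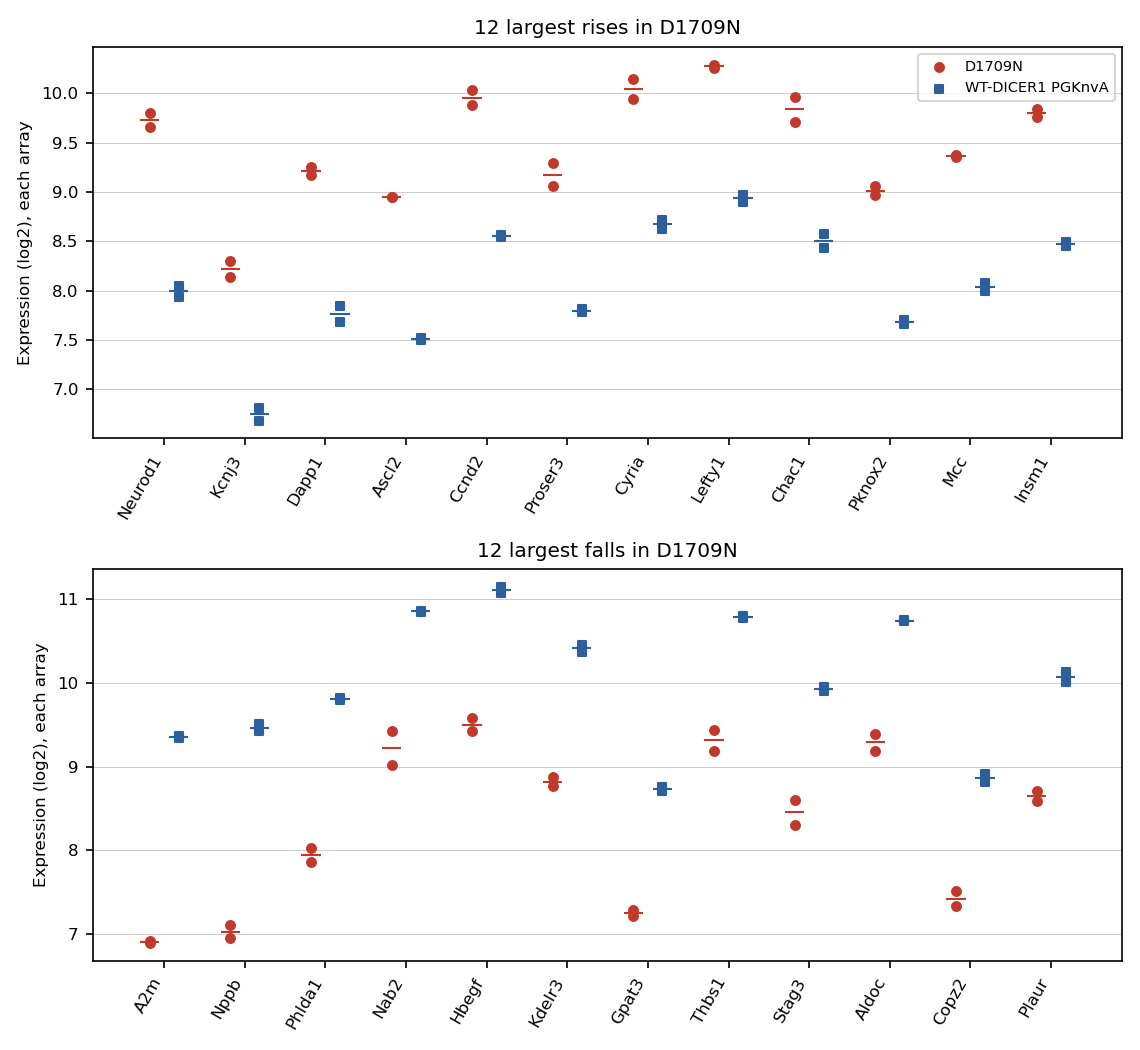
Log2 expression of the 12 genes with the largest rise (upper panel) and the 12 with the largest fall (lower panel) on each D1709N array (red circles) and WT-DICER1 PGKnvA array (blue squares), with short lines at group means. Predicted and small RNA genes were left out of the ranking. The groups do not overlap for any of these genes, which was a condition of their choice. A2m sits at 6.91 and 6.89 in D1709N cells, against 9.36 and 9.35 in WT-DICER1 cells.

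The eGFP arrays show where these levels lie relative to cells without a DICER1 transgene. They used the ENvA vector. Because the deposited wild-type means of the 2 vectors are equal, the fit removes no vector effect from D1709N minus eGFP. Over all genes, 2656 were higher in D1709N than in eGFP cells (19.0%) and 2365 lower (16.9%), together 36.0%, with 198 genes at least 2-fold apart each way (1.42%). Of the 12 largest rises, 6 were also called above the eGFP level, 2 were called below it and 4 were not called either way. Ccnd2 averaged 9.96 in D1709N cells and 10.64 in eGFP cells, against 8.55 in WT-DICER1 cells, so that D1709N lay between the other two. Lefty1 did so too, with a mean of 11.55 in eGFP cells (D1709N minus eGFP -1.27, adjusted p = 1.99e-05). Ascl2 averaged 7.64 in eGFP cells, close to its WT-DICER1 level, and D1709N exceeded eGFP by 1.31. Of the 12 largest falls, 6 were also called below the eGFP level, 1 above it and 5 not at all. Nppb averaged 8.18 in eGFP cells, between D1709N and WT-DICER1, whereas Kdelr3 averaged 7.89 there, under both. Since the D1709N arrays enter both comparisons and chose these genes, the positions are descriptions.

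Probe sets for miRNA hairpins read the locus of the hairpin and do not separate 5p from 3p strands. They are outside the rule by which genes were named, and those described here were chosen after their values were seen. Mature sequences from RefSeq (GRCm38.p6) are shown for the clusters that moved, to show which seeds they carry, with the seed in capitals.
mmu-miR-302b-3p: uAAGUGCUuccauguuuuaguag
mmu-miR-302d-3p: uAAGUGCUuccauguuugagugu
mmu-miR-363-3p: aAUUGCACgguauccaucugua
mmu-miR-92a-3p: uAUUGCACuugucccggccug
mmu-miR-20b-5p: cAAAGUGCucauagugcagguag
mmu-miR-20a-5p: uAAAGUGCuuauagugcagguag
mmu-let-7f-5p: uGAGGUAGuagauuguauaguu
mmu-let-7d-5p: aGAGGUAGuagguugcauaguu
miR-302b-3p and miR-302d-3p share the seed AAGUGCU, miR-363-3p and miR-92a-3p share AUUGCAC, miR-20b-5p and miR-20a-5p share AAAGUGC, and both let-7 members carry GAGGUAG. The mature miR-302b-3p lies at chr3:127545275-127545297 on the plus strand, miR-363-3p at chrX:52741697-52741718 on the minus strand, miR-20a-5p at chr14:115044183-115044205 on the plus strand and let-7f-5p at chr13:48537889-48537910 on the minus strand.

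The miR-302/miR-367 cluster was higher in D1709N cells at all 5 of its hairpins. Without the filter on low values, 22 of 296 hairpin probe sets rose (7.43%, against 15.8% of all 19938 genes) and 25 fell (8.45%, against 13.6%). Mir302b had log2 levels of 7.25 and 7.31 in D1709N cells, against 4.90 and 4.53 in WT-DICER1 cells (adjusted p = 1.23e-06). Mir302a had 7.02 and 6.58, against 4.74 and 4.84, Mir302c 7.14 and 6.73, against 4.78 and 4.77, and Mir302d 7.17 and 7.10, against 5.91 and 5.45. Mir367 was lowest, at 5.28 and 5.06 in D1709N cells, against 3.86 and 4.24 in WT-DICER1 cells. Every WT-DICER1 value of the cluster lay under the 6.42 filter level, so no fold is given. Cells with eGFP averaged 7.61 ± 0.17 for Mir302b (SD, n = 3) and E1813Q cells read 7.32 and 7.27, so D1709N lay near both. The Dicer-/- cells without a vector averaged 5.45 ± 0.07 (SD, n = 3), well below D1709N, and the Dicer+/+ cells 5.61 ± 0.05 (SD, n = 2). Larp7, the gene whose intron holds the cluster, had 11.27 and 11.37 in D1709N cells, against 11.49 and 11.48 in WT-DICER1 cells, and was not called (-0.17, adjusted p = 0.0689).

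The X-linked miR-106a/miR-363 cluster was also higher, while its paralogue miR-17/miR-92 was lower. Mir363 had 8.22 and 8.10 in D1709N cells, against 6.62 and 6.66 in WT-DICER1 cells, a rise of 1.52 ± 0.14 (SE, adjusted p = 3.25e-09) to a level above that of eGFP cells (6.72 ± 0.24 SD, n = 3). Mir20b, Mir92-2, Mir106a and Mir19b-2 of that cluster were called higher too, but their WT-DICER1 means lay below the filter level of 6.42. So did the D1709N means of Mir20b (6.15), Mir92-2 (6.10) and Mir19b-2 (6.00), while that of Mir106a was 6.56. In the miR-17/miR-92 cluster, Mir17, Mir18, Mir19a, Mir20a and Mir19b-1 fell, and so did the host transcript Mir17hg. Mir20a had 7.19 and 7.03 in D1709N cells, against 8.20 and 8.18 in WT-DICER1 cells. Mir17hg had 8.75 and 8.81, against 9.38 and 9.70 in WT-DICER1 cells, a difference of -0.76. These clusters hold near-identical copies (Mir20a and Mir20b, Mir17 and Mir106a, Mir19b-1 and Mir19b-2), so reads of one locus by the other's probes cannot be told apart here. In the let-7 cluster, Mirlet7f-1 had 5.66 and 5.88, against 6.84 and 7.07, and Mirlet7d had 8.44 and 8.23, against 9.01 and 8.94 in WT-DICER1 cells. Both fell, Mirlet7f-1 to values below the filter level, while Mirlet7a-1, below it in both groups, differed by 0.02 (adjusted p = 0.925). In the miR-106b/miR-25 cluster Mir93 fell by 0.34, whereas Mir106b (-0.16) and Mir25 (-0.01) were not called.

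**Figure D3:**
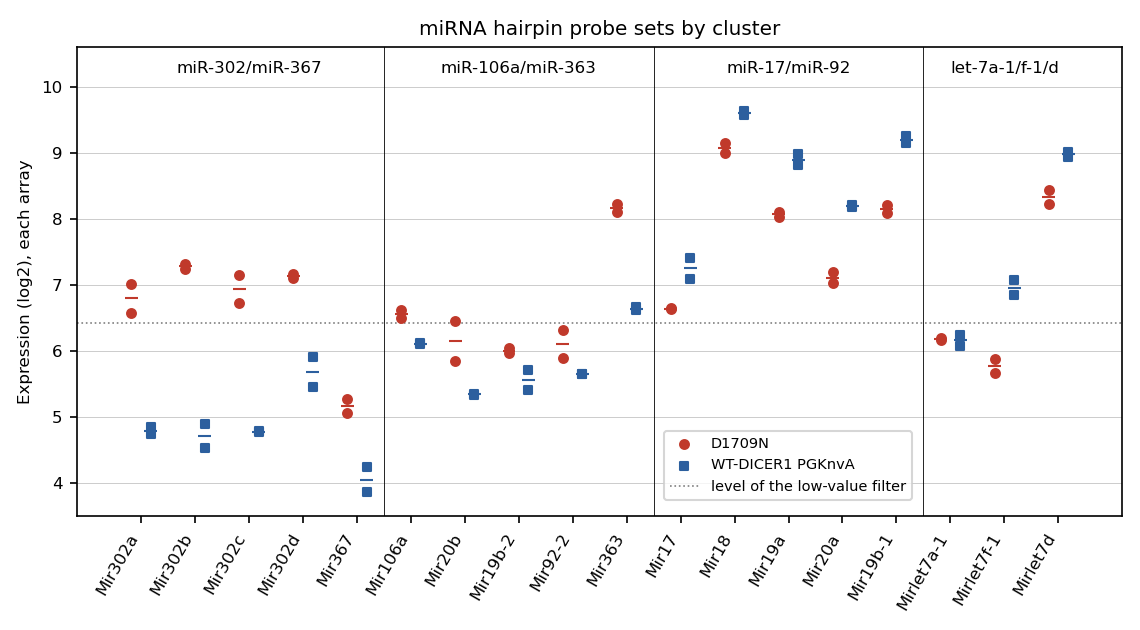
Log2 expression of hairpin probe sets in 4 miRNA clusters on each D1709N array (red circles) and WT-DICER1 PGKnvA array (blue squares). The dotted line is the filter level of 6.42, and all WT-DICER1 values of the miR-302/miR-367 cluster lie under it, down to 3.86 for Mir367, while Mir363 stands at 8.22 and 8.10 in D1709N cells and the 5 hairpins of miR-17/miR-92 lie lower in D1709N than in WT-DICER1 cells.

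Reported targets were counted by the strand of their miRNA, and their shares stand beside 21.5% higher and 18.5% lower over all genes. Of 20 tested let-7 (5p) targets, 8 rose (40%) and 3 fell (15.0%), with a median difference of 0.17 against 0.02 for all genes. The risers were Ccnd2, the kinase Cdk6 (0.61), the chromatin factor Hmga2 (0.58), the RNA-binding let-7 inhibitors Lin28a (0.54) and Lin28b (0.49), and 3 more at 0.16 to 0.37. Hmga2 had 10.13 and 10.21 in D1709N cells, against 9.66 and 9.53 in WT-DICER1 cells, and Lin28a had 10.50 and 10.51, against 9.96 on both WT-DICER1 arrays. Thbs1, a let-7 target as well, moved the other way, and so did Dicer1 itself, which stands on this list. Of 17 miR-15 and miR-16 (5p) targets, 7 rose (41.2%) and 3 fell (17.6%), although the list's median was -0.07. Its largest rises, Ccnd2, Ccnd1 and Cdk6, stand on other lists as well. Ccnd1 had 11.98 and 11.94 in D1709N cells, against 10.80 and 10.83 in WT-DICER1 cells. Of 20 miR-17 and miR-106 (5p) targets, 4 rose and 4 fell (2 without D1709N array R2), 20% each way and so near the 21.5% higher and 18.5% lower of all genes, with Ccnd1 (1.14) and the kinase Limk1 (0.56) up and the inhibitory Smad7 (-0.94) and Dnajc27 (-0.72) down. Of 13 miR-21 (5p) targets, 1 rose (7.69%; Marcks, a call that was lost without D1709N array R1 or either WT-DICER1 array) and 4 fell (30.8%), including the ubiquitin ligase Peli1 (-0.65) and the protease inhibitor Timp3 (-0.64).

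Targets of 3p strands were counted in the same way. For miR-290 and miR-302, 7 of 22 tested targets were called higher (31.8%) and 3 lower (13.6%), with a median of 0.06. Without D1709N array R1, 4 rose, and without either WT-DICER1 array, 1 fell. Lefty1 and the Hippo kinase Lats2 were the highest risers, and Lats2 had 8.66 and 8.37 in D1709N cells, against 7.96 and 7.94 in WT-DICER1 cells. Arid4b, a chromatin regulator on the same list, had 9.44 and 9.51, against 10.15 and 10.05 in WT-DICER1 cells. Of 11 miR-92 and miR-25 targets, 1 rose (9.09%), the cell cycle inhibitor Cdkn1c (0.56), and 2 fell (18.2%; 0 without D1709N array R2 or WT-DICER1 array R6). Of 21 tested genes of the miRNA machinery, 8 were higher (38.1%, against 21.5% of all genes; 5 without WT-DICER1 array R5). Only 2 were lower (9.52%, against 18.5%; 1 without either D1709N array or WT-DICER1 array R5), Dicer1 among them, and 11 were not called. The list shares Lin28a, Lin28b and Dicer1 with the let-7 targets. Among the silencing effectors of the machinery, the GW182 protein gene Tnrc6b had 10.25 and 10.34, against 9.74 and 9.73 in WT-DICER1 cells. Ago1 rose by 0.46, Ago3 by 0.32 and Ago2 by 0.16, whereas Tnrc6a (0.04) and Tnrc6c (0.06) were not called.

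Genes induced by ERK and other growth signals were lower. Of 22 tested genes of the ERK output and feedback list, 13 fell (59.1%, against 18.5% of all genes) and 5 rose (22.7%; 3 without either WT-DICER1 array), with a median difference of -0.35. Besides Phlda1, Nab2, Hbegf and Plaur, the feedback inhibitor Spry4 had 11.22 and 11.05 in D1709N cells, against 11.80 on both WT-DICER1 arrays. The phosphatase Dusp6, another feedback inhibitor, fell by 0.40 and Spry2 by 0.49. The list was not uniform, since Ccnd1, Etv1 (0.97) and Etv4 (0.49) rose. Of 24 immediate early genes, which growth factors induce within minutes, 15 fell (62.5%; 9 without WT-DICER1 array R5) and 1, Klf2, rose (not called without D1709N array R1 or WT-DICER1 array R6). Maff, a small bZIP factor, had 6.98 and 7.19, against 8.39 and 8.46 in WT-DICER1 cells, and fell by 1.34 ± 0.092 (SE, adjusted p = 4.77e-11). Egr1 had 8.91 and 8.90, against 9.51 and 9.59 in WT-DICER1 cells. Fosl2 (-0.85), Junb (-0.70), Nr4a1 (-0.66) and Jun (-0.58) were lower as well. Of 20 targets of SRF and YAP, the actin- and tension-linked regulators, 9 fell (45.0%) and 5 rose (25%; 3 without D1709N array R2). The matricellular genes Ccn1 and Ccn2 were among the falls, with Ccn1 at 10.78 and 10.65 in D1709N cells, against 11.84 and 11.81 in WT-DICER1 cells, and Ccn2 lower by 0.83.

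In the Nodal, Activin and TGF-beta list, the feedback inhibitors moved in opposite directions. Of 25 tested genes, 7 fell (28.0%; 4 without either WT-DICER1 array) and 3 rose (12%). Lefty1 rose while its paralogue Lefty2 had 7.72 and 7.90 in D1709N cells, against 7.78 and 7.63 in WT-DICER1 cells, overlapping groups with a difference of 0.10. Smad7, the inhibitory SMAD, had 10.14 and 10.11, against 11.07 and 11.06 in WT-DICER1 cells, and fell by 0.94 ± 0.048 (SE, adjusted p = 3.87e-13). The signal transducer Smad3 rose by 0.71, while the receptor gene Acvr2a fell by 0.74. Of 17 BMP and Id genes, 4 fell (23.5%) and 1 rose (5.88%), and without WT-DICER1 array R6 only 1 fell. Id2, an inhibitor of bHLH factors, fell by 0.31.

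Pluripotency genes were called in both directions, more of them lower. Of 27 tested, 14 fell (51.9%) and 6 rose (22.2%), with a median of -0.18. The nuclear receptor Nr5a2 had 10.36 and 10.15 in D1709N cells, against 10.89 and 10.99 in WT-DICER1 cells. Tbx3, linked to the naive state, had 10.09 and 10.00, against 10.72 and 10.69 in WT-DICER1 cells, and the adhesion gene Jam2 fell by 0.80. Pou5f1 rose by 0.29, Utf1 by 0.58 and Gbx2 by 0.68. Of 19 genes of the primed epiblast and early ectoderm, 8 rose (42.1%) and 4 fell (21.1%), and the median was -0.03. The de novo DNA methyltransferases led the rises: Dnmt3b had 10.94 and 10.96, against 9.88 and 9.87 in WT-DICER1 cells, and Dnmt3a had 10.41 and 10.39, against 9.37 and 9.36. Sall2 rose by 0.86, whereas the epiblast factor Otx2 fell by 0.37. On the DNA methylation and demethylation list, which holds the same methyltransferases, 8 of 17 rose (47.1%) and 4 fell (23.5%; 1 without D1709N array R2).

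Lineage lists differed in how many members were called, beside 21.5% higher and 18.5% lower over all genes. Of 17 trophoblast genes, 9 rose (52.9%) and 6 fell (35.3%; 3 without D1709N array R2 or WT-DICER1 array R5). Hand1, a trophoblast and mesoderm factor, had 8.73 and 8.77 in D1709N cells, against 7.84 and 7.95 in WT-DICER1 cells. The keratin gene Krt18 read 11.60 on both D1709N arrays, against 10.87 and 10.91, while the T-box factor Eomes had 7.84 and 7.73, against 8.65 and 8.64 in WT-DICER1 cells. Of 20 extraembryonic endoderm genes, 3 rose (15%) and 4 fell (20%), close to the share of all genes. Gata6, a primitive endoderm factor, had 7.08 and 7.06, against 8.19 and 8.23 in WT-DICER1 cells, while the endocytic receptor gene Lrp2 rose by 1.15. Of 18 mesoderm and primitive streak genes, 4 rose (22.2%; 2 without D1709N array R2 or WT-DICER1 array R6), again close to it, and 2 fell (11.1%). Of 14 germline and meiosis genes, 9 fell (64.3%; 5 without WT-DICER1 array R5) and 0 rose by limma (1 at an unadjusted p under 0.05). Dazl, an RNA-binding protein of germ cells, had 7.68 and 7.51, against 8.97 and 8.93 in WT-DICER1 cells, a fall of 1.36 ± 0.089 (SE, adjusted p = 2.33e-11). The synaptonemal complex gene Sycp3 had 7.68 and 7.56, against 9.10 and 8.82, and Tex19.1 fell by 0.77.

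More imprinted genes were called higher than lower. Of 22 tested, 10 rose (45.5%) and 3 fell (13.6%), with a median of 0.21, and 10 or 11 rose when any 1 of the 4 arrays was left out. The growth factor gene Igf2 had 12.23 and 12.25 in D1709N cells, against 11.10 and 11.02 in WT-DICER1 cells (1.18 ± 0.16 SE, adjusted p = 3.18e-06). Igf2r, whose product clears IGF2, had 9.72 and 9.76, against 10.22 and 10.19 in WT-DICER1 cells. Paternally expressed genes among the risers included Mest (0.88), Nnat (0.83) and Peg3 (0.82), and maternally expressed ones included Ascl2 and Cdkn1c. Peg3 had 12.31 and 12.37, against 11.54 and 11.50 in WT-DICER1 cells.

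Of 27 tested glycolytic and hypoxia-responsive genes, 12 fell (44.4%, against 18.5% of all genes), 14 were not called, and 1, Hk2 (0.18), rose (not called without D1709N array R1 or WT-DICER1 array R6). P4ha1, a collagen prolyl hydroxylase, had 9.33 and 9.26 in D1709N cells, against 10.23 and 10.25 in WT-DICER1 cells. The phosphofructokinase Pfkp had 10.39 and 10.40, against 11.24 and 11.22, and the oxidase Ero1a had 11.20 and 11.19, against 12.06 and 11.99 in WT-DICER1 cells. Pgk1, a glycolytic kinase that also stood among the 10 tested housekeeping controls, fell by 0.54. Of those controls 3 rose (30%) and 4 fell (40%), with a median of -0.05, against 21.5% and 18.5% of all genes. Without D1709N array R2, 1 rose and 2 fell. Of 20 genes of the p53 pathway and apoptosis, 8 fell (40%) and 1 rose, Bak1, whose call was lost without any 1 of the 4 arrays. The falls numbered 5 without D1709N array R1 or WT-DICER1 array R5 and 4 without D1709N array R2. Trp53inp1 had 11.54 and 11.49, against 11.94 and 11.93 in WT-DICER1 cells, and the pro-apoptotic Pmaip1 fell by 0.46. Of 30 genes of mitosis and the centromere, 15 fell (50%) and 6 rose (20%; 3 without WT-DICER1 array R6), with Kif4 at -0.57 the largest change. The kinesin Kif4 had 9.25 and 9.41, against 9.90 on both WT-DICER1 arrays, while Cdc20, an activator of the anaphase-promoting complex, rose by 0.36. Of 23 G1-S genes, 8 rose (34.8%) and 5 fell (21.7%; 3 without D1709N array R2), led by the cyclins Ccnd2 and Ccnd1.

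**Figure D4:**
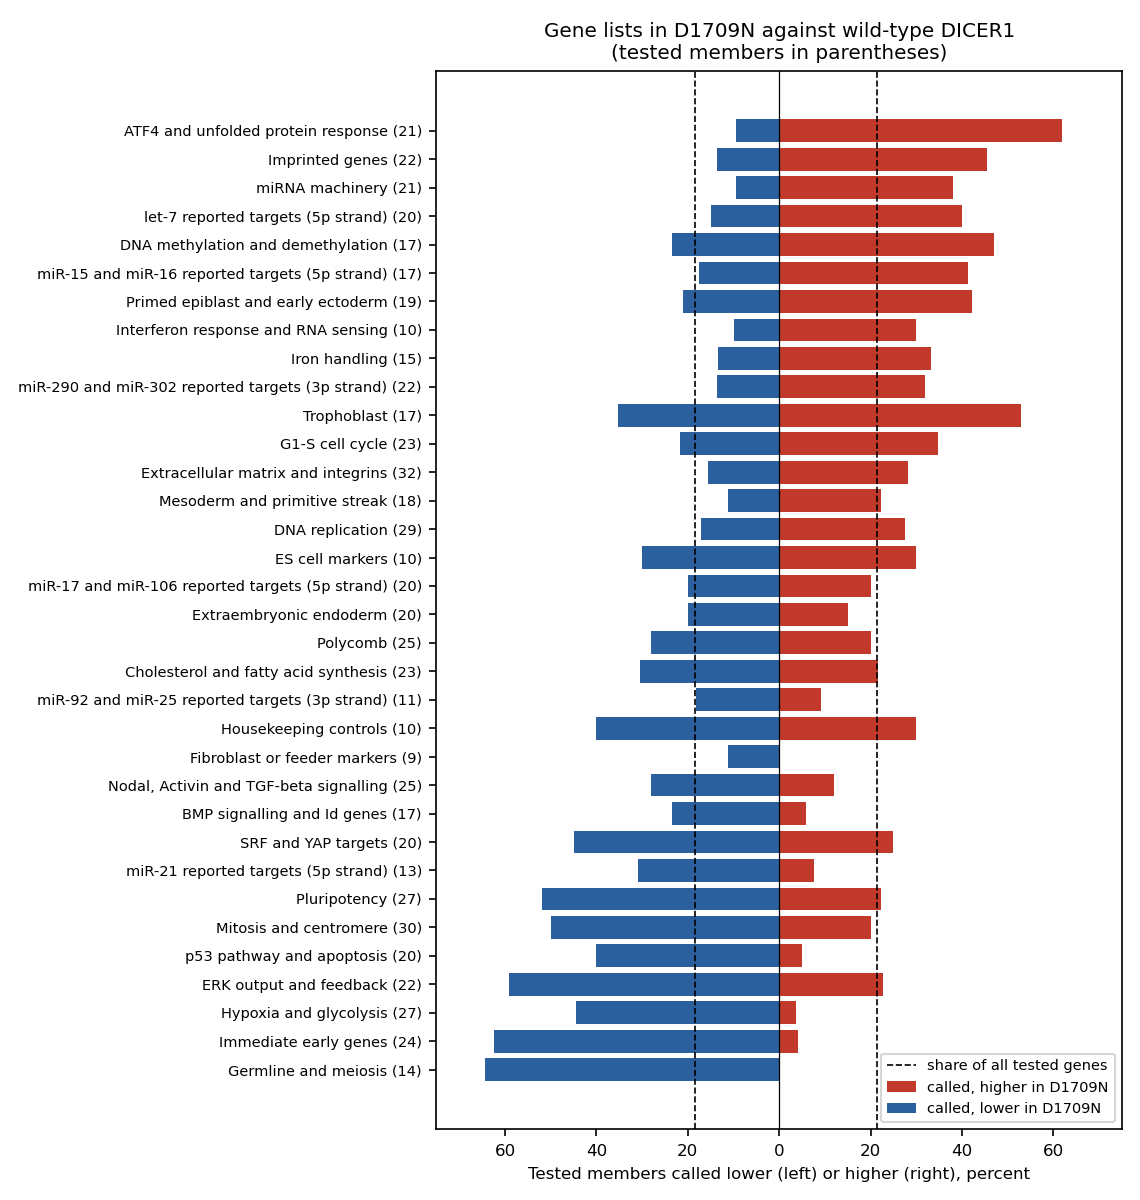
Share of each list's tested members called lower (blue, left) or higher (red, right) in D1709N against WT-DICER1 PGKnvA cells, with the number tested in parentheses. Dashed lines mark the shares over all tested genes, 18.5% lower and 21.5% higher. The ATF4 list reaches 61.9% higher, and the germline (64.3%), immediate early (62.5%) and ERK (59.1%) lists have the longest bars to the left. Lists overlap, and those with under 9 tested members are not drawn.

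Genes of the amino acid response and the unfolded protein response were higher in D1709N cells. ATF4 is a transcription factor whose translation rises when amino acids are short or the endoplasmic reticulum is stressed. Of 21 tested genes of its list, 13 rose (61.9%) and 2 fell (9.52%), with a median difference of 0.27. Cth, an enzyme of cysteine synthesis, had 12.17 and 12.03 in D1709N cells, against 11.23 and 11.19 in WT-DICER1 cells (0.89 ± 0.056 SE, adjusted p = 1.18e-11). Trib3, a pseudokinase feedback inhibitor of ATF4, had 8.65 and 8.57, against 7.99 and 8.0 in WT-DICER1 cells. Herpud1, a gene of protein degradation at the endoplasmic reticulum, rose by 0.69, and the mitochondrial folate enzymes Mthfd2 and Shmt2 rose by 0.51 and 0.45. Not all members followed, since the chaperone gene Dnajb9 fell by 0.51 and the asparagine synthetase gene Asns by 0.18. Atf4 mRNA had 10.07 and 9.98, against 9.89 and 9.95 in WT-DICER1 cells, and was not called.

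Because most tested members of this list rose, the promoters of its members were searched for TGATGNAA, a core of the composite C/EBP-ATF element, on either strand (reverse TTNCATCA). The windows run from 250 bases before to 50 after each start in RefSeq (GRCm38.p6). The motif occurred in 6 of 18 tested list members with an entry (33.3%), in 3 of the 10 of these that rose (30%), in 2.6% of 11069 tested genes and in 4.51% of 27025 genes. Windows of 30 bases are shown for the 3 that rose, with the match in capitals.
Chac1: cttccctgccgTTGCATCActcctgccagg
Herpud1: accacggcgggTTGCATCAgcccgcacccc
Trib3: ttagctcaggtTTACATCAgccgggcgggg
The first lies at chr2:119351038-119351067 on the plus strand, the second at chr8:94386306-94386335 on the plus strand and the third at chr2:152344028-152344057 on the minus strand. Matches also occurred at Asns, which fell, and at Atf3 and Vldlr, which were not called. The list was made of genes of the ATF4 and unfolded protein responses, so a high share of matches in it says nothing about D1709N. Among the members that rose the share (30%) was no higher than in the list (33.3%). A match describes the letters of the window and does not show binding.

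E1813Q, the other mutant in the PGKnvA vector, was compared with D1709N directly. In that test 845 genes were higher in D1709N than in E1813Q (6.05%) and 680 lower (4.87%). Without D1709N array R1 393 were higher, and without D1709N array R2 363 were lower. The split moved to 1059 higher and 501 lower when each array was centred on its median. At least 2-fold differences numbered 3, all lower in D1709N (0.0215%). At an unadjusted p under 0.05, 3526 genes differed in either direction.

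Chac1 and Mthfd2, both on the ATF4 list, had the largest differences upward among the called genes, with predicted and small RNA genes left out. Chac1 had 9.96 and 9.71 in D1709N cells, against 8.70 and 8.98 in E1813Q cells, a difference of 0.99 ± 0.085 (SE, adjusted p = 3.85e-08). Mthfd2 had 11.29 and 11.28, against 10.27 and 10.47 in E1813Q cells, and differed by 0.92. Cth had 12.17 and 12.03, against 11.36 and 11.29 in E1813Q cells, and differed by 0.77. For all 3 the D1709N and E1813Q arrays were well apart. In the list, 9 of 21 genes were higher in D1709N (42.9%, against 6.05% of all genes), with a median of 0.21. Atf4 mRNA was among the 9, with 10.07 and 9.98 in D1709N cells, against 9.54 and 9.51 in E1813Q cells. E1813Q minus WT-DICER1 was 0.34 for Chac1, 0.11 for Cth and -0.41 for Mthfd2, beside 1.33, 0.89 and 0.51 for D1709N minus WT-DICER1, and these contrasts share the WT-DICER1 arrays. Genes outside the list, chosen after their values were seen, were higher than in E1813Q too: the proline synthesis enzyme Aldh18a1 had 11.46 and 11.43 in D1709N cells, against 10.72 and 10.67 in E1813Q cells. The stress gene Nupr1 had 9.28 and 9.36, against 8.51 and 8.62 in E1813Q cells. Pck2, a mitochondrial gluconeogenic enzyme, had 9.37 and 9.35, against 8.69 and 8.59 in E1813Q cells.

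Several signalling and membrane genes were lower in D1709N than in E1813Q. Pmp22, a membrane protein of peripheral myelin, had 11.12 and 10.87 in D1709N cells, against 12.13 and 12.16 in E1813Q cells (-1.15 ± 0.23 SE, adjusted p = 0.00242). Lefty2 had 7.72 and 7.90, against 8.93 and 8.94 in E1813Q cells, and differed by -1.13. The cytokine gene Csf1 had 8.42 and 8.29, against 9.28 on both E1813Q arrays, and the carbonic anhydrase Car4 differed by -0.89. In these 4 genes E1813Q arrays stood above both D1709N and WT-DICER1 arrays. Of the immediate early genes 8 were lower in D1709N (33.3%; 3 without D1709N array R1). Jun had 9.47 and 9.24, against 9.99 and 9.97 in E1813Q cells, and Ccn1 had 10.78 and 10.65, against 11.53 and 11.45. Of 20 SRF and YAP targets, 7 were lower (35.0%), among them Acta2 (-0.73). In the trophoblast list 5 of 17 were lower in D1709N (29.4%; 3 without either D1709N array), with Krt18 at -0.55. The DNA replication list went the other way, with 11 of 29 genes higher in D1709N than in E1813Q (37.9%; 7 without D1709N array R2), led by Orc2 at 0.31. Against WT-DICER1, 8 genes of that list rose (27.6%; 4 without D1709N array R1 or either WT-DICER1 array) and 5 fell (17.2%), near the 21.5% and 18.5% of all genes. Germline genes were higher in D1709N than in E1813Q in 5 of 14 cases (35.7%, against 6.05% of all genes), but in 2 without D1709N array R1 and 1 without D1709N array R2.

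**Figure D5:**
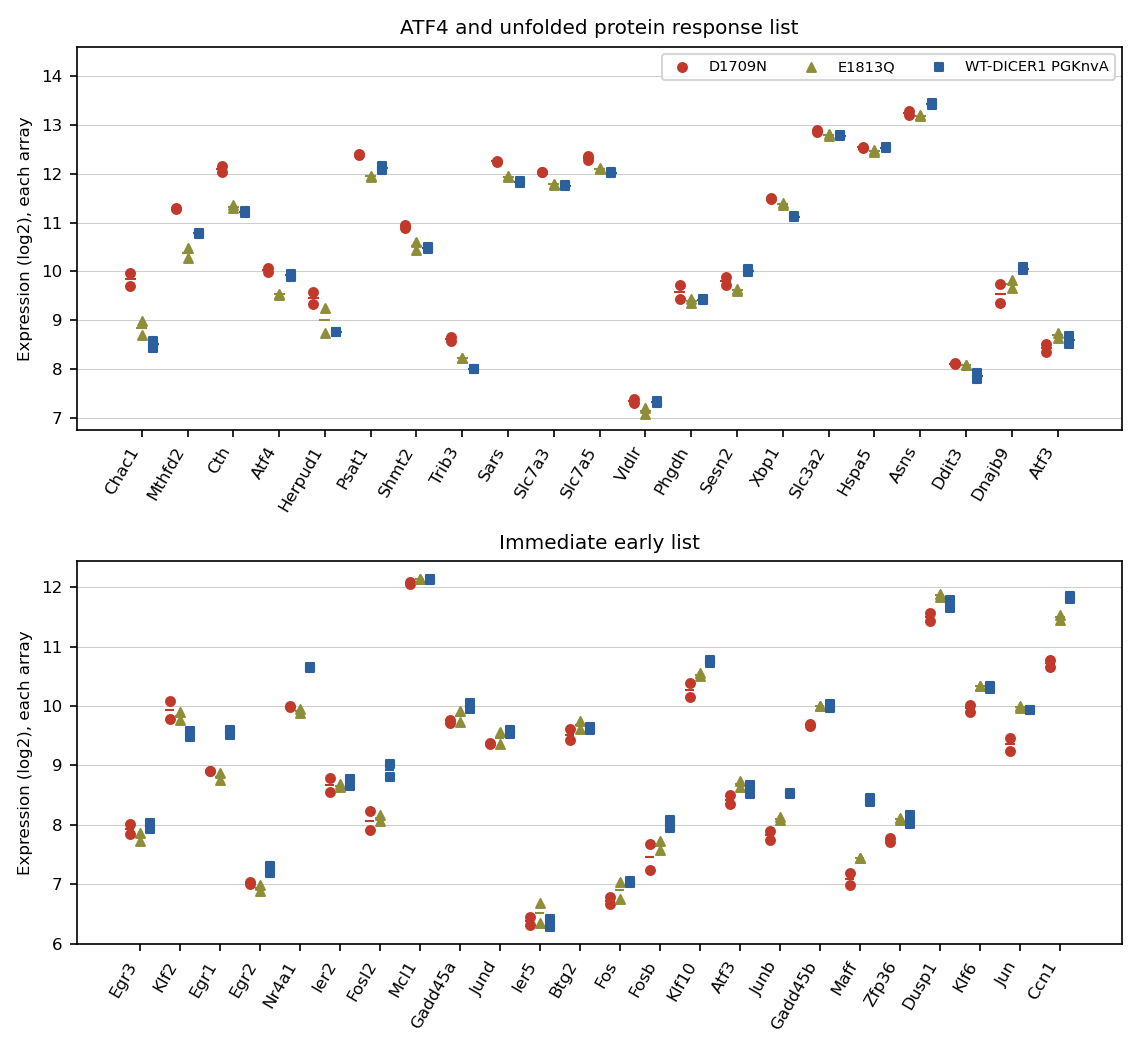
Log2 expression of the tested members of the ATF4 and unfolded protein response list (upper panel) and of the immediate early list (lower panel) on each D1709N (red circles), E1813Q (olive triangles) and WT-DICER1 PGKnvA (blue squares) array, ordered by D1709N minus E1813Q. Chac1 stands at 9.96 and 9.71 in D1709N cells, against 8.70 and 8.98 in E1813Q cells and 8.44 and 8.57 in WT-DICER1 cells, while Ccn1 at the right end of the lower panel is lowest in D1709N cells.

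D1709N and D1709A replace the same aspartate but were expressed from different vectors. Each was set against wild-type DICER1 in its own vector and the 2 changes were compared. In the deposited values, however, the wild-type means of the 2 vectors are equal within 7.5e-05. The result is thus in effect the plain D1709N minus D1709A difference, in which vector and substitution cannot be told apart. The D1709N change exceeded the D1709A change for 384 genes (2.75%) and was below it for 322 (2.31%). With each array centred on its median these counts were 226 and 452, and without WT-DICER1 array R6 they were 107 and 101. At least 2-fold differences numbered 1 (0.00717%) and 3 (0.0215%). Neurod1 changed by 1.73 in D1709N and 0.68 in D1709A, a difference of 1.05 ± 0.20 (SE, adjusted p = 0.0026). Insm1 changed by 1.33 in D1709N and 0.41 in D1709A, and Chac1 by 1.33 and 0.70. Cth changed by 0.89 in D1709N and 0.35 in D1709A (difference 0.54, adjusted p = 7.2e-05). Ccnd2 (1.40 in D1709N and 1.32 in D1709A), Lefty1 (1.34 and 1.40), A2m (-2.46 and -2.26) and Aldoc (-1.45 and -1.49) were not called different between the substitutions. The 95% interval of the difference ran from -0.26 to 0.44 for Ccnd2, from -0.47 to 0.34 for Lefty1, from -0.71 to 0.32 for A2m and from -0.33 to 0.40 for Aldoc. A difference that misses the threshold does not show that the substitutions act alike.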

How the data were processed

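The values are log2 expression levels per probe set as deposited by the authors, made with RMA and Partek 6.6 per the submitters' processing notes, with settings not given in the sources used here. Per the labels' protocols, RNA was isolated with Qiagen miRNeasy and the Ambion WT expression kit served for labelling. Of 35556 probe sets, 21789 carried 1 gene symbol, 1621 several and 12146 none. The probe set with the highest mean stood for each of 19938 symbols, and symbols were updated by Entrez ID to RefSeq (GRCm38.p6). Genes whose mean over all arrays was below the 30th percentile (6.42) were left out, which leaves 13956, of which the reference table matched 13915.

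All 28 arrays were fitted in limma 3.58.1 (R 4.3.3) with 9 groups and a PGKnvA vector term (18 residual degrees of freedom, mean-variance trend), two-sided, with Benjamini-Hochberg adjustment over all tested genes. A gene was called at an adjusted p under 0.05. Differences are D1709N minus WT-DICER1 unless another pair is named, on the log2 scale. The method was tested on simulated data with independent errors. Those data lack the exact relations between the deposited arrays, so that test does not show how accurate the p-values are here. The number of arrays limits the precision. No other splits of 2 arrays against 2 were tested.

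Named genes are Dicer1, the 12 largest rises and falls with separated arrays and both means above the filter, up to 3 each way with a mean below it, up to 4 members of each of 35 lists, and up to 4 each way for the other comparisons, without predicted and small RNA genes. Other named genes were chosen after their values were seen. The members and lists were chosen with earlier results of these data known. Alternatives covered the arrays fitted, the filter, the trend, centring, the probe set rule, a replicate block and leaving out each array. Python 3.11.15, numpy 2.4.6, pandas 2.3.3 and matplotlib 3.10.9 were used for tables and figures.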

Additional observations from a re-analysis of the deposited data

Results flagged for a closer look

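For the following genes the change in D1709N differed from the change in D1709A by limma's test of the difference itself. Each change was taken against wild-type DICER1 in its own vector, but those 2 wild-type means are equal in the deposited values. Vector and substitution therefore cannot be told apart. Neurod1 differed by 1.05 on the log2 scale (adjusted p = 0.0026), with changes of 1.73 in D1709N and 0.68 in D1709A. Insm1 differed by 0.91 (adjusted p = 3.83e-04). Prmt8, an arginine methyltransferase of neurons, differed by 0.99 (adjusted p = 0.032), with 0.12 in D1709N and -0.87 in D1709A. Mcf2, a guanine nucleotide exchange factor, differed by 0.91 (adjusted p = 0.05), a call lost without the filter (0.059), without the trend (0.067) and with arrays centred on their medians (0.054). Srgn differed by -1.41 (adjusted p = 0.0021), a value that rests on D1709N levels below the filter. Thbs1 differed by -1.14 (adjusted p = 0.022), Rsph4a, a ciliary radial spoke gene, by -1.09 (adjusted p = 0.0064) and the smooth muscle actin gene Acta2 by -0.95 (adjusted p = 3.23e-04). Rsph4a changed by 0.11 in D1709N and 1.20 in D1709A. Acta2 averaged 10.57 in D1709N cells and 10.74 in WT-DICER1 cells and was not called between those groups. Without D1709N array R1 the adjusted p was 0.14 for Prmt8 and 0.17 for Mcf2. Without WT-DICER1 array R6 it was 0.12 for Prmt8, 0.17 for Mcf2, 0.083 for Thbs1 and 0.088 for Rsph4a. The calls of Prmt8, Mcf2 and Thbs1 were lost without WT-DICER1 array R5 too, and those of Thbs1 and Mcf2 without D1709N array R2.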

How the results depend on the processing

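In D1709N against WT-DICER1, every alternative run kept both counts within 1.5 times. Leaving out 1 array gave 2147 to 2686 genes higher and 1857 to 2283 lower, with 64 to 77 and 55 to 71 at least 2-fold. Against E1813Q the 4 compared arrays alone called 524 higher and 407 lower, and the replicate block 560 and 451, beside 845 and 680. Same-numbered D1709N and E1813Q arrays had deviations with r = -0.02 (2 pairs). With 2 arrays in a group these deviations mirror each other, so both pairs give this same value. It shows no shared deviation of same-numbered arrays over the tested genes. Whether arrays with the same number were handled together is not given in the labels and was not tested. Leaving out 1 array gave 393 to 780 higher and 363 to 623 lower, lowest without D1709N array R1 and without D1709N array R2. Centring the arrays on their medians gave an E1813Q split of 1059 to 501, and for the D1709A difference 226 to 452 beside 384 to 322. For the D1709A difference, leaving out 1 array gave 107 to 329 and 89 to 307. Without D1709N array R1 180 were higher, without D1709N array R2 170 were lower, and without WT-DICER1 array R5 134 and 89 remained called. Against eGFP the ranges were 2115 to 2531 and 1881 to 2268. The cause of these shifts was not tested. No paired analysis was possible because D1709N arrays are numbered 1 and 2 and WT-DICER1 arrays 5 and 6. Of 145 named results, 12 to 18 lost their call when 1 array was left out, and 2 or 3 with centring, without the filter or without the trend, while in none of these did a sign turn. Exact relations between the deposited arrays leave the residual spread, and so the p-values, approximate, and an array without background values gives no detection limit.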

Other observations

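Chromatin, metabolic and matrix lists outside the groups above had members called in both directions, with shares to be read beside 21.5% higher and 18.5% lower over all genes. Of 25 Polycomb genes, 5 rose (20%) and 7 fell (28.0%) in D1709N against WT-DICER1. Kdm2b, which recruits a Polycomb complex to CpG islands, had log2 levels of 9.48 and 9.41 in D1709N cells, against 8.72 and 8.69 in WT-DICER1 cells, and Phc1 rose by 0.57. The PRC2 subunits Suz12 (-0.60) and Mtf2 (-0.61) fell. Of 23 genes of cholesterol and fatty acid synthesis, 5 rose (21.7%) and 7 fell (30.4%). The sterol demethylase Cyp51 (-0.89), Hsd17b7 (-0.65) and the sterol sensor partner Insig1 (-0.63) were lower, while the fatty acid synthase Fasn was higher by 0.40.

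Of 15 iron handling genes, 5 rose (33.3%) and 2 fell (13.3%; 1 without D1709N array R1 or either WT-DICER1 array). Hmox1, the heme-degrading oxygenase, had 10.64 and 10.59 in D1709N cells, against 11.61 on both WT-DICER1 arrays (-0.99, adjusted p = 3.70e-05). The mitochondrial iron importer Slc25a37 rose by 0.56 and the iron transporter Slc11a2 by 0.40. Of 32 extracellular matrix and integrin genes, 9 rose (28.1%) and 5 fell (15.6%), with the laminin chain gene Lama5 at 10.98 and 10.85 in D1709N cells, against 10.00 and 10.05 in WT-DICER1 cells. Of 10 interferon response genes, 3 rose (30%) and 1 fell (10%), led by the transcription factor Stat2 (0.73). Of 2 tested two-cell-stage genes, 1 fell, Eif1a (-0.19). Among genes on no list, chosen after their values were seen, the alanine aminotransferase Gpt2 had 10.73 and 10.80 in D1709N cells, against 9.53 and 9.54 in WT-DICER1 cells, and the lactate dehydrogenase subunit Ldhb had 10.19 and 10.18, against 11.30 and 11.47.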
